A study of Equus caballus with 4 samples.

Results

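The dystrophin glycoprotein complex was followed through 8 of its genes, DMD, UTRN, DAG1, SGCA, SGCB, SGCD, DTNA and SSPN, in differentiating equine satellite cells exposed to gamma-oryzanol (GO), a mixture of plant sterol ferulates from rice bran. The members were all noncontrol probes whose gene name in the array files equals 1 of these symbols, which gave 10 probes for 8 of the 13350 genes with a symbol on the array. The cells were primary cultures of satellite cells, the stem cells that lie on muscle fibers, from m. semitendinosus of juvenile colts, pre-plated to lower the share of fibroblasts. On the 3rd day of differentiation the GO group had spent 24 h with 125 nM GO, and the control group had received the vehicle alone, 0.04 μl/ml DMSO, which the GO group also carried. On each of 4 two-color arrays of 1 slide, cRNA of a GO sample (Cy5) was hybridized with cRNA of a control sample (Cy3). With no dye swap, dye and GO effects on a probe cannot be told apart. Per the methods, cultures of all sampled horses were scored and the best-scoring line was taken further, and the labels number the arrays as replicates. Whether each array stands for another horse or for another culture of a single line is not settled by the sources used here. The p-values therefore measure the spread between these samples, which may be technical.

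The complex ties the actin cytoskeleton of a muscle fiber to the matrix around it. Dystrophin binds actin inside the fiber and beta-dystroglycan in the membrane, alpha-dystroglycan binds laminin outside, and the sarcoglycans with sarcospan stabilize this link laterally. Loss of dystrophin or of a sarcoglycan causes muscular dystrophy, and the complex is built up as myoblasts fuse into myotubes.

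The arrays differed more in the GO channel than in the control channel. Of noncontrol spots 63.5 to 68.9% were well above background in control and 57.4 to 67.0% in GO, fewest on array 4 in both. No noncontrol spot was saturated, and between arrays the log2 ratios correlated across probes at 0.45 to 0.68. Of 43603 probes, 26833 were tested, those well above background on all 4 arrays in at least 1 channel. Of the member probes 9 of 10 were tested, and 8 of these 9 were well above background in both channels on all 4 arrays. The labelled cell type was borne out by its markers, with 11 of 12 myogenic genes well above background in the control channel of all arrays, among them MYOG, DES and MYH3. The probe of PAX7, a marker of quiescent satellite cells, was on no array well above background.

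The member probes are 60 bases long and their positions are those of the files, on build EquCab1. The probes that the results below turn on are shown here, because a pair lies on SGCD and another pair on DMD and because the SGCA and SGCB probes extend over more of the genome than their own length. In the SGCD probes, of which 30 bases each are shown, capitals mark the longest run in which the same 2 bases alternate. The DMD, SGCA and SGCB probes are given whole.
SGCD, brighter probe: acctTGTGTGTGTGTGTGTGTGTGTGggcg
SGCD, dimmer probe: gtgagtggatataaATATATATAaatatat
DMD, brighter probe: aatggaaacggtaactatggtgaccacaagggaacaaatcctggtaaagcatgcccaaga
DMD, dimmer probe: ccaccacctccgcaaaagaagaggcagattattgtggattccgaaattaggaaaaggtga
SGCA: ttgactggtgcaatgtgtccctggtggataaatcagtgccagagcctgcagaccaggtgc
SGCB: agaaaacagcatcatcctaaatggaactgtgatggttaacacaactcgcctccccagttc

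The SGCD probes lie end to end at chr14:21542073-21542132 (brighter) and chr14:21542013-21542072 (dimmer), with 0 bases between them. They were thus placed on 1 stretch of 1 listed transcript, and whether either binds that transcript alone was not tested. The run of TG in the brighter probe is 22 bases long, and 0.0367% of all noncontrol probes hold a dinucleotide run of at least that length. The run in the dimmer probe is 9 bases long, a length that 0.780% of all probes reach. The DMD probes lie on an unplaced scaffold at chrUn:166967057-166967116 (brighter) and chrUn:166967127-166967186 (dimmer), 10 bases apart. The files give the symbol DMD for both and describe their transcript as an uncharacterized protein. The SGCA probe is listed over 1063 bases at chr11:24679139-24680201 and the SGCB probe over 3158 bases at chr3:73266382-73269539, so each covers parts of the transcript that are apart in the genome, as does the UTRN probe over 442 bases at chr31:21189843-21190284. The probes of DAG1 (chr16:37643080-37643139), SSPN (chr6:51950950-51951009) and DTNA (chr8:48604965-48605024) are unbroken in the genome. GC content ran from 35% in the dimmer SGCD probe to 55% in the SGCA probe, around a median of 41.7% over all tested probes.

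By its brightest tested probe, no member gene passed the 2 thresholds given next. The dimmer of the 2 probes of SGCD, which encodes delta-sarcoglycan, was higher in GO past both, and the brighter was not. DMD, DAG1, SGCA and SGCB had negative log2 ratios on all 4 arrays and did not pass the thresholds. The share of all tested probes with the same sign on all 4 arrays was not counted. Changed here means past 2 thresholds, an adjusted p (limma, Benjamini-Hochberg over all tested probes) of 0.05 or less and a 1.3-fold or larger difference. Of the 9 tested member probes 1 was changed, beside 8.94% of all tested probes, so the share among members lay near the background. That probe was higher in GO, as were 3.33% of all tested probes, and 0 of 9 were lower, beside 5.61%. At an unadjusted p under 0.05, limma gave 7 of 9 (2 higher, 5 lower), beside 35.7% of all tested probes, and the plain one-sample test 6 of 9, beside 28.2%. By the adjusted p alone, without the fold change, 5 of 9 member probes passed, 2 higher and 3 lower, beside 18.1% of all tested probes. 1 of the 3 lower, the dimmer DMD probe, had entered the tests through the control channel alone, where its signal was the higher. The same probe was 1 of the 5 lower at the unadjusted p by limma. Among probes well above background in both channels on all arrays, 4 of 8 member probes passed, 2 higher and 2 lower, beside 19.5%. The median log2 ratio was -0.20 over the 9 member probes and 0.00 over all tested probes.

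**Figure D1:**
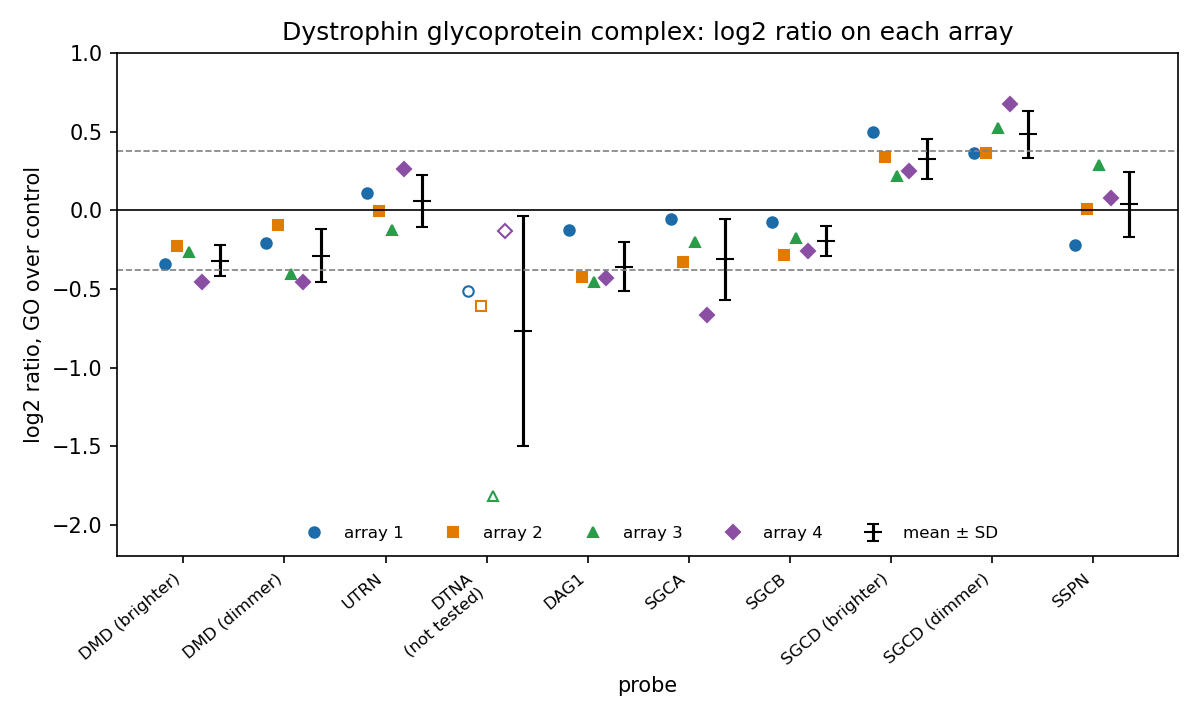
Log2 ratio of GO over control (y axis) for each of the 10 member probes (x axis), with 1 point per array and the mean ± SD over 4 arrays in black. Open points mark the DTNA probe, which was not tested, and dashed lines the 1.3-fold threshold. The points of both SGCD probes lie above 0 on every array, and those of both DMD probes, DAG1, SGCA and SGCB lie below 0 on every array.

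The sarcoglycans are single-pass membrane proteins that assemble as a unit of several subunits in skeletal muscle. The dimmer SGCD probe had control signals of 714, 609, 618 and 534 on arrays 1 to 4 and GO signals of 918, 784, 888 and 854. Every GO signal was above every control signal. Its log2 ratios were 0.36, 0.36, 0.52 and 0.68, a mean of 0.48 ± 0.15 (SD, n = 4), which is a 1.40-fold rise with a limma adjusted p of 0.00994.

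The brighter SGCD probe had control signals of 1956, 1985, 1860.3 and 1559.6 and GO signals of 2765, 2509.5, 2168 and 1854. GO was above control within each array, and the ranges of the channels overlapped across arrays. The log2 ratios were 0.50, 0.34, 0.22 and 0.25, a mean of 0.33 ± 0.13 (SD, n = 4) with a limma adjusted p of 0.0240 at 1.25-fold, under the fold change threshold. Without array 2 or 3 the adjusted p was 0.0971 and 0.0598. The brighter probe was highest on array 1, whereas the dimmer was highest on array 4, so the neighboring probes had the same sign but ordered the arrays differently. With the mean of both probes in place of the brighter, SGCD had a log2 ratio of 0.40 and a limma adjusted p of 0.00737, past both thresholds. The call of the dimmer probe was lost without the filter on dim probes (adjusted p = 0.0604), with a plain one-sample test (0.0913) and without the pairing of the channels by array (0.0989).

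SGCA encodes alpha-sarcoglycan. Its control signals were 242, 394, 191 and 235 and its GO signals 233, 314, 166 and 148. GO was below control within every array, while the channels overlapped across arrays. The log2 ratios were -0.06, -0.33, -0.20 and -0.66, a mean of -0.31 ± 0.26 (SD, n = 4) with a limma adjusted p of 0.0791 and a 95% interval of -0.56 to -0.07.

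SGCB encodes beta-sarcoglycan. Its control signals were 624, 559, 541 and 498 and its GO signals 594, 459, 479 and 416. These ranges overlapped too, with GO the lower channel on each array. The log2 ratios were -0.07, -0.28, -0.18 and -0.26, a mean of -0.20 ± 0.10 (SD, n = 4) with a limma adjusted p of 0.0718 and a 95% interval of -0.35 to -0.05. The lowest ratio of the SGCD probes, 0.22, was above the highest ratio of the SGCA and SGCB probes, -0.06, and a difference between the subunits was not tested.

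SSPN encodes sarcospan, a tetraspanin-like membrane protein that sits beside the sarcoglycans. It was the brightest member probe, with control signals of 3801, 2627, 2146 and 2255 and GO signals of 3262, 2645, 2615 and 2379. The GO channel was the lower on array 1 and the higher on the others. The log2 ratios of -0.22, 0.01, 0.29 and 0.08 had a mean of 0.04 ± 0.21 (SD, n = 4), a limma adjusted p of 0.793 and a 95% interval of -0.17 to 0.25, both bounds short of the 1.3-fold threshold.

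**Figure D2:**
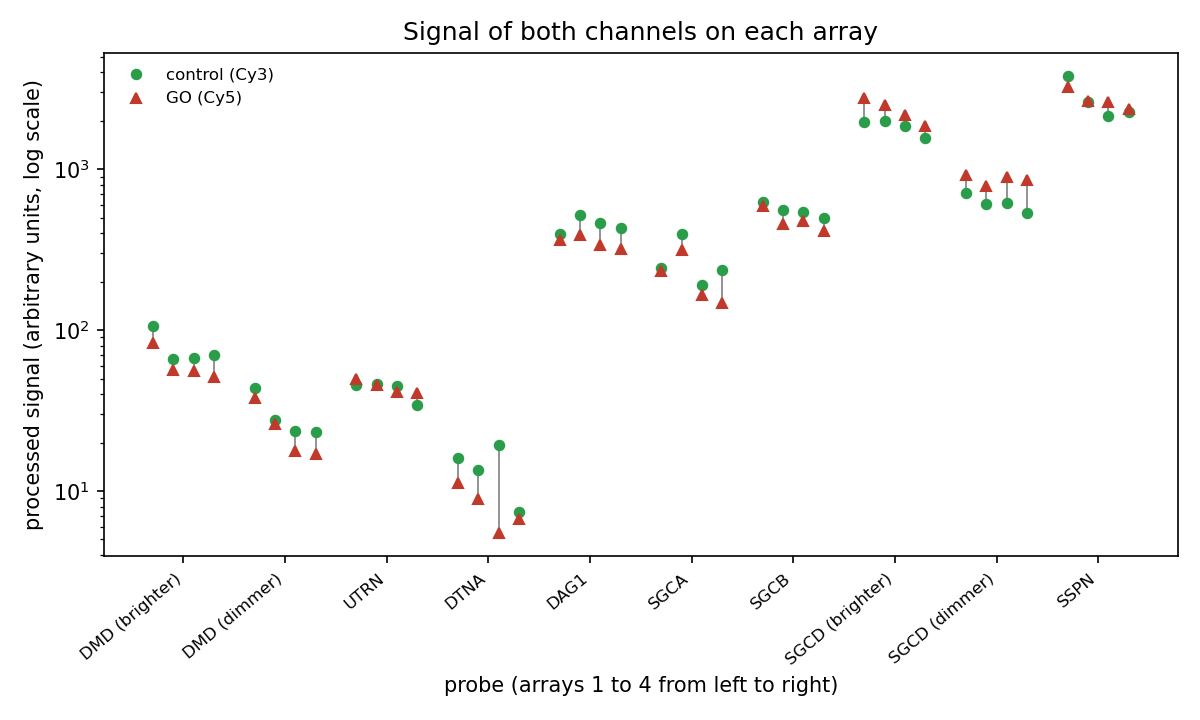
Processed signal (y axis, arbitrary units, log scale) of the control channel (green circles) and the GO channel (red triangles) for each member probe (x axis), arrays 1 to 4 from left to right, with a line joining the channels of an array. In the dimmer SGCD probe the GO signals (784 to 918) lie above all control signals, in DAG1 they lie below all control signals, and the DTNA signals lie lowest.

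DAG1 encodes dystroglycan, the receptor that is cut into the alpha subunit outside the cell and the beta subunit in the membrane. Its control signals were 394, 521, 461 and 432 and its GO signals 361, 388, 337 and 319.6, with every GO signal below every control signal. DAG1 and the dimmer SGCD probe were the 2 of 9 tested member probes whose channels did not overlap, beside 8% of all tested probes. The DAG1 log2 ratios were -0.12, -0.42, -0.45 and -0.43, a mean of -0.36 ± 0.16 (SD, n = 4) with a limma adjusted p of 0.0245 at 1.28-fold, just under the fold change threshold. Array 1 stood apart from the others, and without it the mean was -0.44 with an adjusted p of 0.0162, past both thresholds. Without array 2, 3 or 4 the adjusted p was 0.101, 0.0936 and 0.0692, and it was 0.0914 with no filter on dim probes, 0.12 with the plain one-sample test and 0.254 without the pairing of the channels.

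DAG1 had the largest mean log2 ratio in size among the brightest tested probes of the members. Of the 9065 other genes named in the files and tested, TOR1A, UPF2 and KIF5B had log2 ratios most like those of DAG1 over the 4 arrays. Their Euclidean distances from DAG1 were 0.08, 0.10 and 0.10 and their mean log2 ratios -0.35, -0.40 and -0.40.

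DMD encodes dystrophin. Its brighter probe had control signals of 105, 66.3, 67.3 and 69.9 and GO signals of 83.2, 56.6, 56.0 and 51.0. GO was the lower channel on each array, and the ranges overlapped because array 1 was the brightest in both channels. The log2 ratios were -0.34, -0.23, -0.27 and -0.45, a mean of -0.32 ± 0.10 (SD, n = 4) with a limma adjusted p of 0.0201 at 1.25-fold, under the fold change threshold. Without array 2, 3 or 4 the adjusted p was 0.0655, 0.0654 and 0.0651.

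The dimmer DMD probe had control signals of 43.8, 27.6, 23.5 and 23.2 and GO signals of 37.9, 25.9, 17.8 and 16.9. The GO signal was well above background on 2 of the 4 arrays, so the ratio rests in part on signals near the floor, and the filter kept this probe for its control signals alone. The log2 ratios were -0.21, -0.09, -0.40 and -0.46, a mean of -0.29 ± 0.17 (SD, n = 4), given here as a description. Among the member probes those of DMD moved most with the scaling. The means of the brighter and dimmer probe were -0.14 and -0.07 with normexp correction and loess, and -0.39 and -0.49 with median centring and no lowess. The brighter probe had an adjusted p of 0.135 with the former and passed both thresholds with the latter.

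UTRN encodes utrophin, the close relative of dystrophin that takes its place along the membrane in fetal muscle and at the neuromuscular junction. Its control signals were 45.9, 46.0, 44.8 and 34.1 and its GO signals 49.4, 45.9, 41.1 and 40.8. The GO channel was the higher on arrays 1 and 4 and the lower on arrays 2 and 3. The log2 ratios of 0.11, 0.00, -0.12 and 0.26 had a mean of 0.06 ± 0.16 (SD, n = 4), a limma adjusted p of 0.613 and a 95% interval of -0.12 to 0.24. The sign of this mean turned with both other scalings, at 0.00 (below 0 before rounding) and -0.06.

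DTNA encodes alpha-dystrobrevin, which binds dystrophin and the syntrophins on the inner face of the membrane. Its probe was the dimmest member, with control signals of 16.1, 13.5, 19.2 and 7.36 and GO signals of 11.3, 8.87, 5.45 and 6.71. It was well above background on 2 arrays in the control channel and on 0 in the GO channel. The lowest signal of any probe well above background was 15.2 to 30.01 in the GO channel of the 4 arrays, so the GO level of DTNA was not measured and no fold change is given. 1 of the 4 GO values was a surrogate that Feature Extraction sets for signals near background. The probe was left out of the tests.

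Among the 7 member genes tested by their brightest probe, 0 passed both thresholds, beside 8.7% of 9511 named genes (3.31% higher, 5.38% lower). Of these 7, 3 (DMD, DAG1 and SGCD) passed the adjusted p alone, beside 17.3% of named genes. At an unadjusted p under 0.05, limma gave 5 of 7, beside 34.7% of named genes, and the plain one-sample test 4 of 7, beside 26.2%.

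**Figure D3:**
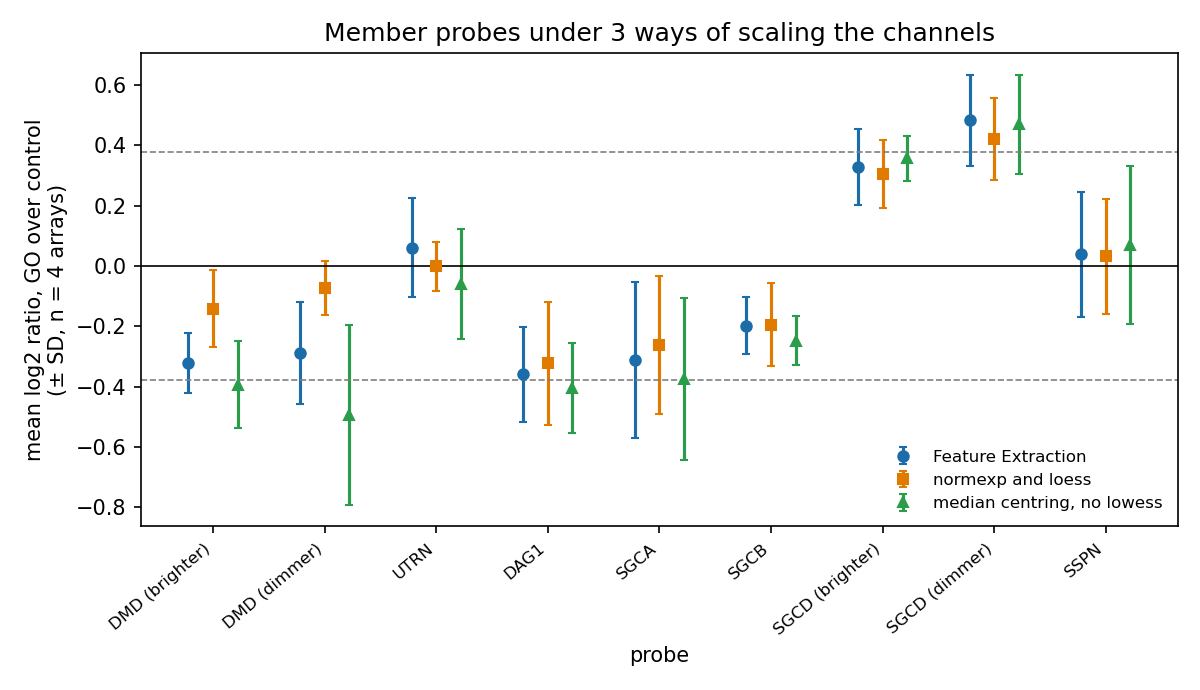
Mean log2 ratio of GO over control (y axis, ± SD, n = 4 arrays) of the 9 tested member probes (x axis) from the Feature Extraction ratios, from normexp correction with loess and from median centring without lowess. Dashed lines mark the 1.3-fold threshold. The dimmer SGCD probe lies above the upper line in all 3, while the DMD probes range from -0.07 to -0.49.

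The rest of the pathway was taken from 4 lists: other partners in the complex, ligands of dystroglycan in the matrix, enzymes that glycosylate dystroglycan, and proteins that link the complex to the costamere, the rib-like attachment over each Z disc. Of their 45 genes 41 were on the array by name, 31 were tested and 2 were changed, beside the 8.7% of named genes above. The median log2 ratio was 0.02 over these 31 genes and 0.00 over all tested genes.

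Of 4 tested complex partners 0 were changed by limma, with 2 at an unadjusted p under 0.05 (34.7% of named genes) and 3 by the plain one-sample test at that level (26.2%). SNTB1, a syntrophin that docks signaling proteins to dystrophin, had a mean log2 ratio of -0.37 ± 0.18 (SD, n = 4) with a limma adjusted p of 0.0266 at 1.29-fold, and was not past the fold change threshold. SGCE, epsilon-sarcoglycan, which replaces the alpha subunit in other tissues, had a mean of 0.28 ± 0.15 (SD, n = 4) with a limma adjusted p of 0.0447 at 1.21-fold. The other tested partners, CAV3 and SNTB2, had means of -0.14 and 0.13.

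Of 6 tested matrix ligands 1 was changed, beside 8.7% of named genes. Limma gave 4 at an unadjusted p under 0.05 (2 higher, 2 lower; 34.7% of named genes), and the plain one-sample test 1 (26.2%). HSPG2, the heparan sulfate proteoglycan perlecan, had log2 ratios of 0.75, 0.11, 0.32 and 0.56, a mean of 0.43 ± 0.28 (SD, n = 4), and rose 1.35-fold with a limma adjusted p of 0.0380. This call was lost without array 1, 3 or 4 (adjusted p of 0.0823, 0.0889 and 0.0943), with array weights (0.0567), no filter (0.159), the plain one-sample test (0.18) and no pairing (0.577). With normexp and loess HSPG2 was at 0.30, under the fold change threshold, while BGN, biglycan, which was at -0.02 here, passed both thresholds there at 0.41 and with median centring at 0.93. LAMA2, the laminin chain of the muscle basement membrane, had a mean log2 ratio of -0.32 ± 0.13 (SD, n = 4) with a limma adjusted p of 0.0263 at 1.25-fold, under the fold change threshold.

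Of 14 tested glycosylation enzymes 0 were changed by limma, with 1 at an unadjusted p under 0.05 and 1 by the plain one-sample test at that level, beside the same 34.7% and 26.2%. B4GAT1, which primes the laminin-binding sugar chain of dystroglycan, had a mean log2 ratio of -0.36 ± 0.49 (SD, n = 4) with a limma adjusted p of 0.186, and its ratio on array 4 was -1.08 against -0.22 to 0.03 on the others. POMT2, which with POMT1 adds the first mannose, had log2 ratios of 0.05, -0.48, -0.08 and -0.41, a mean of -0.23 ± 0.25 (SD, n = 4) with a limma adjusted p of 0.154. Its GO signal was well above background on 3 of the 4 arrays, so the filter kept POMT2 for its control signals alone. Among probes well above background in both channels on all arrays, 12 enzymes were tested and 0 changed.

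Of 7 tested costamere linkers 1 was changed, beside 8.7% of named genes. Limma gave 3 at an unadjusted p under 0.05 (1 higher and 2 lower, beside 34.7% of named genes), and the plain one-sample test 2 (26.2%). ANK3, ankyrin G, which anchors dystrophin and dystroglycan, had log2 ratios of -0.63, -0.40, -0.52 and -0.86, a mean of -0.60 ± 0.20 (SD, n = 4), and fell 1.52-fold with a limma adjusted p of 0.00772. This call was lost with no filter on dim probes (adjusted p of 0.0624), the plain one-sample test (0.0927) and no pairing (0.0887). DYSF, the membrane repair protein dysferlin, had a mean of -0.27 ± 0.21 (SD, n = 4) with a limma adjusted p of 0.0856. VCL and TLN1, the focal adhesion proteins vinculin and talin 1, had means of 0.02 and 0.12.

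**Figure D4:**
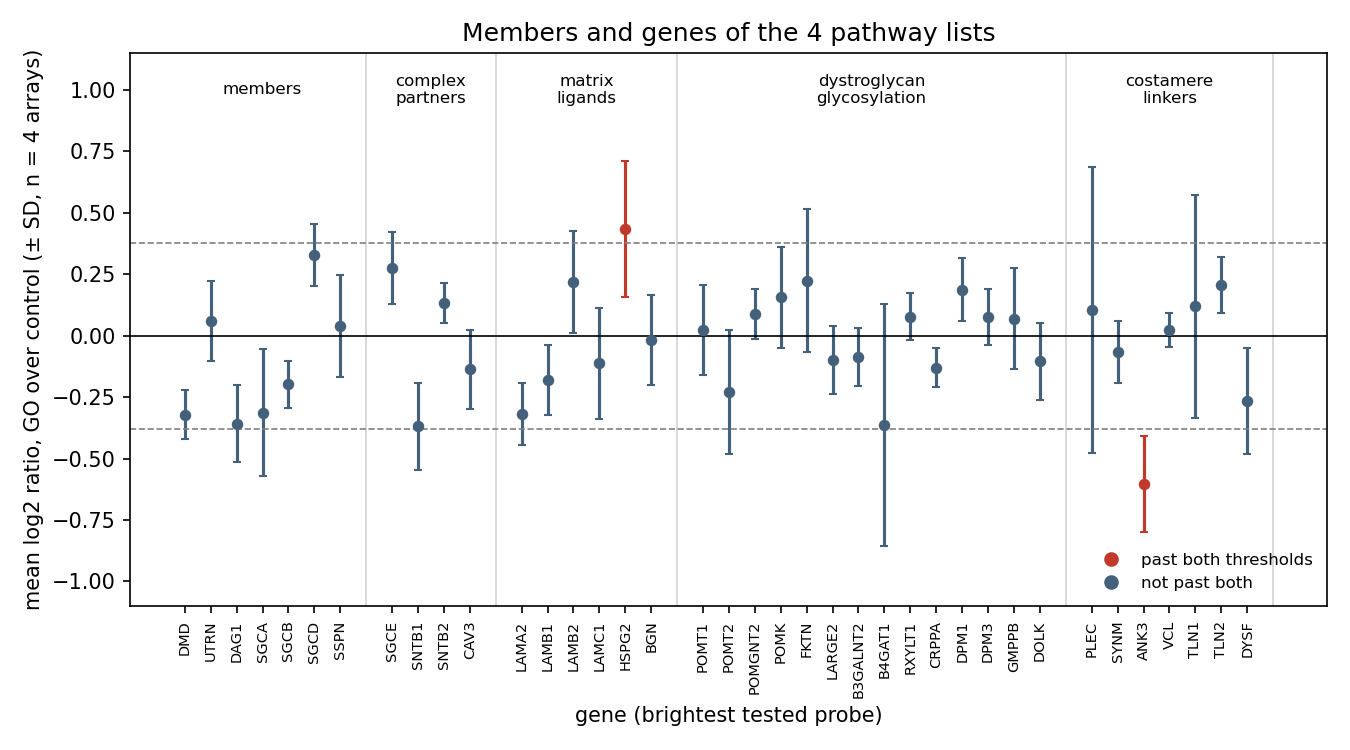
Mean log2 ratio of GO over control (y axis, ± SD, n = 4 arrays) of the brightest tested probe of each member and of each gene of the 4 pathway lists (x axis). Red marks genes past both thresholds, which are HSPG2 and ANK3, and dashed lines the 1.3-fold threshold.

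Muscle genes moved in the same samples. Of 11 tested myogenic markers 8 were lower past both thresholds and 0 higher, beside 5.38% of named genes lower, with a median log2 ratio of -0.49. Their summed signal was 163645 to 221782 in the control channel and 97505 to 134977 in the GO channel, so the ranges did not overlap. All 8 fibroblast markers were well above background, with summed signals of 318189 to 483371 in control and 320411 to 448286 in GO. By the brightest probe 1 of these 8, PDGFRA, was higher past both thresholds, beside 3.31% of named genes higher. Its mean log2 ratio was 0.87 ± 0.48 (SD, n = 4) with a limma adjusted p of 0.0198. The other of the 2 PDGFRA probes was also higher past both thresholds, with a mean of 1.38. The collagen genes COL1A1, COL3A1 and COL1A2 had means of -0.20, -0.10 and -0.05 by that probe. Of the 9 COL1A2 probes 2 were lower past both thresholds, with means down to -0.42. Other probes of COL1A1 and COL3A1 had means up to 0.32 and 0.37, and 0 passed both thresholds. Of the 2 DCN probes the brighter had a mean of 0.04, and the other was higher past both thresholds at 0.42. All 4 smooth muscle markers were well above background, and 1 of 4, CNN1, was higher past both thresholds, beside the same 3.31%. Its mean log2 ratio was 0.50 ± 0.20 (SD, n = 4) with a limma adjusted p of 0.0148. Of 6 leukocyte markers 3 (PTPRC, CD14 and CD68) were well above background in control and ITGAM and CD3E on no array in either channel, and none of the 5 adipocyte, 5 endothelial and 4 Schwann cell markers was. In bulk cultures fewer cells of a type and less RNA per cell cannot be told apart, and the part of the cell makeup in the member ratios was not tested.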

How the data were processed

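RNA of GO-treated and control equine satellite cells was compared on 4 two-color Horse 4x44K arrays. The authors processed the scans with Feature Extraction (version 10.10.1.1 per the file headers, another than the methods name). The deposited intensity values are mean and background signals, background-subtracted signals, and processed signals, which were detrended and dye-normalized (linear and lowess). The deposited log10 ratios are processed Cy5 over Cy3 signals of a spot, and the authors' table of the series held the same values (180880 of 180880 equal). The array files name build EquCab1, whose genome was not used here.

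Log10 ratios were converted to log2. Control spots and outlier spots were dropped, and replicate spots of a probe averaged. Each probe's 4 ratios were tested against 0 with limma (version 3.58.1, R 4.3.3; intercept and eBayes, two-sided), with a prior SD of 0.144 and 3.60 prior degrees of freedom beside 3 residual ones. The thresholds are those of the methods, which do not name the test, so the calls here need not equal the study's. At these thresholds the study reported far fewer changed transcripts than the 2399 probes called here. Its printed list of changed genes holds none of the members. The test was tried on simulated data beforehand. Figures were drawn with matplotlib (version 3.10.9).

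The files gave a symbol for 24962 probes. For the lists, 1684 further probes were named by gene number and 436 by accession through the RefSeq gene table of TB-T2T, used for names only, and 36 by the gene name in the files' description. No further member probe was found this way, and 16485 probes stayed unnamed. A gene was taken at its brightest tested probe. Some genes of the lists are not reported here, and the counts of the lists leave them out. Named were all members, list genes past both thresholds, the 2 genes of each list with the largest log2 ratio in size, markers needed to state what is above background, and the 3 genes most like the member with the largest ratio. The other tested partners, BGN, VCL and TLN1 were added after their values were seen, as were the marker genes named with a ratio.

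The channels of an array were paired by their shared hybridization. Their deviations from the group means had a correlation of 0.60, 0.86, 0.73 and 0.48 on arrays 1 to 4, and of -0.54 to 0.24 between arrays. The members and lists were chosen with earlier results of these data known. Alternatives were normexp correction (offset 50) with loess, median centring without lowess, no filter, a stricter filter, a plain one-sample test, no pairing, array weights, the mean of a gene's probes and leaving out each array. The number of arrays limits the precision.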

Additional observations from a re-analysis of the deposited data

Results flagged for a closer look

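The DAG1 ratio on array 1, -0.12, stood apart from those of the other arrays, which lay between -0.45 and -0.42, by more than the gap that marks a far value among 4. This was 1 of 18 sets of 4 ratios checked, those of the 10 member probes and of 8 named list genes, and chance marks about 1 in 20 such sets. Array 1 was also the least negative for SGCA and SGCB, whereas both DMD probes were least negative on array 2.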

How the results depend on the processing

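With median centring and no lowess 4 of 9 member probes were called (1 higher, 3 lower), beside 3306 of all 26833 tested probes (1406 higher, 1900 lower). 1 of the 3 lower was the dimmer DMD probe, which the filter kept for its control signals alone. With array weights 2 of 9 were called (1 higher, 1 lower), beside 2469 of 26833. With no filter, with a plain one-sample test and with no replicate block (the channels unpaired) 0 were called. DMD then passed both thresholds at -0.39 with median centring, DAG1 at -0.40 with median centring and at -0.40 with array weights, and SGCD at 0.40 with the mean of its probes. UTRN turned to -0.00184 with normexp and loess and to -0.0596 with median centring. Leaving out each array gave 1 to 2 member probes, -0.44 to -0.33 for DAG1, -0.0064 to 0.12 for UTRN (below 0 without array 4) and -0.044 to 0.12 for SSPN (below 0 without array 3). Over all probes the count was 1297 with normexp and loess, 908 with no filter, 147 with the plain test, 370 without the block and 1566 to 2430 leaving out each array, against 2399. Complex partners called numbered 1 with median centring and with array weights, and 0 to 1 leaving out each array. Matrix ligands called numbered 1 with normexp and loess (BGN in place of HSPG2), 2 with median centring, 0 with no filter, the plain test, no block and array weights, and 0 to 1 leaving out each array. Costamere linkers called numbered 0 with no filter, the plain test and no block, and 1 leaving out each array. Glycosylation enzymes called numbered 0 leaving out each array. The cause of these shifts was not tested, except that fewer arrays or degrees of freedom enter the plain test and the fits without an array. The stricter filter changed no count by over 1.5 times. DTNA was tested only with no filter, at a limma adjusted p of 0.274. The number of arrays limits what could be called.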
